A study of Mus musculus with 6 samples.

Results

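Integrins are adhesion receptors, and 6 integrin genes are described here in uterine RNA taken 3.5 days post coitum, around when mouse embryos attach. They were chosen by name, with earlier results of these data known. Itgax, Itgal, Itgb2 and Itga4 were taken as chains of leukocyte integrins, and Itga9 and Itgb8 as chains of tissue integrins. Each gene had 1 probe set in the table with its symbol alone, so 6 genes of 987 with a single symbol, and 6 of 1382 probe sets, were studied. A list of 26 integrin alpha and beta chain genes had no other member among the single symbols of the table, and the remaining 20 were not analysed here. The groups were 3 arrays of uteri from Stat3 f/f mice, which carry floxed Stat3 alleles, and 3 arrays of uteri from Stat3 d/d mice, in which Stat3 is deleted. All samples were labelled uterus and female and came from the same day of pregnancy. The Cre driver, the cells in which Stat3 was deleted, the strain, the age and any pooling of animals are not in the labels read here. Nothing in the labels says that arrays came from separate animals, and the p-values cover the spread between these arrays alone, part of which may be technical.

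An integrin is a heterodimer of an alpha and a beta chain that joins a cell to the matrix or to another cell. The beta 2 chain, encoded by Itgb2, is confined to leukocytes. It pairs with the alpha L chain (Itgal) to bind ICAM proteins during lymphocyte adhesion, and with the alpha X chain (Itgax, CD11c), a marker of dendritic cells and some macrophages. The alpha 4 chain (Itga4) binds VCAM-1 and fibronectin and is carried by lymphocytes and monocytes, though other cells make it too. The alpha 9 chain (Itga9) is its closest relative among alpha chains, and binds tenascin-C, osteopontin and VCAM-1 on epithelium, smooth muscle and lymphatic endothelium. The beta 8 chain (Itgb8) pairs with alpha V and releases active TGF-beta from its latent complex.

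The table was not a neutral sample of the array. All of its 1382 probe sets had groups that did not overlap (100%) and arithmetic group means at least 1.5-fold apart, so it had been selected on this comparison, and every integrin in it had to differ. By limma at an adjusted p of 0.05, all 1382 (100%) were called, 67.4% of them higher and 32.6% lower in Stat3 d/d. Counts of integrins called are therefore a description and support nothing. With each array centred on its median, 422 probe sets were called higher and 451 lower, the table's median change of 0.70 became 0.24, and each integrin kept its direction and its call. Stat3 itself was lower in all 3 Stat3 d/d arrays. Its brighter probe set read 262, 356 and 243 in Stat3 f/f against 121, 101 and 131 in Stat3 d/d, and its position relative to the deleted part was not examined. Of the uterine markers, 2 of 10 epithelial genes (Cldn3 and Cldn4) and 3 of 12 stromal genes (Pgr, Thy1 and Dcn) were in the table. Pgr, the progesterone receptor of uterine cells, had mean intensities of 1261 ± 305 in Stat3 f/f against 694 ± 43.9 in Stat3 d/d (SD, n = 3).

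Of the 4 leukocyte chains, Itgax, Itgal and Itgb2 rose in Stat3 d/d and Itga4 fell. Of the tissue chains, Itgb8 rose and Itga9 fell. On the 1 probe set of each gene with its symbol alone, the 6 genes therefore did not divide by the cells they are named for. The 57 probe sets with several symbols were not searched for these genes. Any probe sets of these genes outside the table were not analysed here. The fall of Itga4 thus rests on 1 probe set. The changes of the 6 genes ran from -2.00 to 1.67 on the log2 scale, and the median size was 1.59, against 0.87 over all probe sets of the table. As the genes were chosen with earlier results known, these sizes and the counts below only describe them. A change at least as large as the smallest of the 6, in either direction, was found for 221 of the 1382 probe sets (16.0%). Had 45000 tests been assumed, about the number on such an array, all 6 would pass, 4 higher and 2 lower, against 37.5% of all probe sets (28% higher and 9.48% lower). That count was 0 when each probe set was also judged by its own spread alone, without limma's moderation, although all 6 then had an unadjusted p under 0.05.

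**Figure D1:**
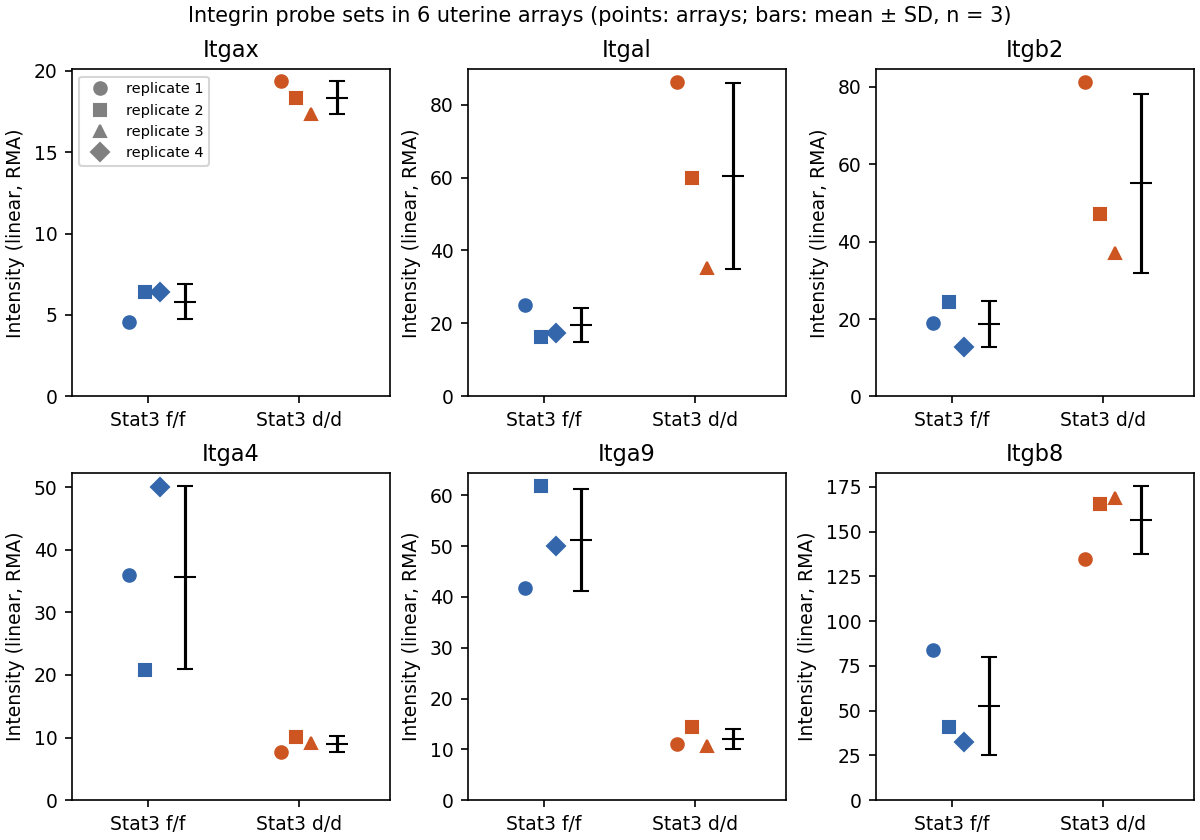
Intensity on a linear scale (vertical axis, starting at 0) of the 6 integrin probe sets in the Stat3 f/f (blue) and Stat3 d/d (orange) arrays, with symbols for replicate numbers and bars for mean ± SD (n = 3). Itgax, Itgal, Itgb2 and Itgb8 are higher and Itga4 and Itga9 lower in Stat3 d/d, with no overlap between groups.

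Promoter sequences from RefSeq (build GRCm38.p6) matched 4 of the 6 members, all but Itgal and Itgb2. The windows of Itgax, Itga4 and Itgb8 are shown, as a leukocyte chain that rose, one that fell and a tissue chain that rose. Each holds 250 bases before the annotated start and 50 after it on the gene's own strand, and capitals mark the part from the start onward. The Itgax window lies at chr7:128129300-128129599 on the plus strand, that of Itga4 at chr2:79255176-79255475 on the plus strand, and that of Itgb8 at chr12:119238227-119238526 on the minus strand.
Itgax: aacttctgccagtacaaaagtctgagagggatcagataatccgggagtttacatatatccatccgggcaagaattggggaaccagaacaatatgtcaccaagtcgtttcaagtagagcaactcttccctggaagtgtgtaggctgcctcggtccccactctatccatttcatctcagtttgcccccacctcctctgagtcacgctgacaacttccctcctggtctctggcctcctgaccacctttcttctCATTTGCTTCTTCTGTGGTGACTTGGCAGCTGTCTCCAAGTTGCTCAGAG
Itga4: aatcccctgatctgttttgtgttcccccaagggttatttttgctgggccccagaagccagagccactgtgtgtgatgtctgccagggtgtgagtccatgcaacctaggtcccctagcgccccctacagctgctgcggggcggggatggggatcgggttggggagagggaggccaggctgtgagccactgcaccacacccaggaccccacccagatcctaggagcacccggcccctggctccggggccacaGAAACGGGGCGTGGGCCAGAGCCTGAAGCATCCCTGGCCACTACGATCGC
Itgb8: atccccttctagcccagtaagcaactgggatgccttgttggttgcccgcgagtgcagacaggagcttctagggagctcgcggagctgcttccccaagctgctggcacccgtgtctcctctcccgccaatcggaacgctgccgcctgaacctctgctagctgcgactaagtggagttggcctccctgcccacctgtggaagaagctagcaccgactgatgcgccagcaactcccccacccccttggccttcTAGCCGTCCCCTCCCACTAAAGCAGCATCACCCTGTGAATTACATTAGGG
The Itga9 window begins its transcript 105 kb inside the gene, at chr9:118711442-118711741 on the plus strand, and is not printed. Both strands of the 4 windows were searched for the STAT element TTCNNNGAA, the interferon element core GAAANNGAA, the PU.1 core GAGGAA and the GC box GGGCGG. The only match was 1 GC box in Itga4, which begins 114 bases before the start. Among 32851 promoter windows of the same length, the STAT element was in 8.30%, the interferon element core in 8.56%, the PU.1 core in 28.3% and the GC box in 35.7%. These letters are absent from the other windows, which says nothing about binding elsewhere.

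Itgb2, the shared beta chain of the leukocyte integrins, read 19.0, 24.4 and 12.7 in Stat3 f/f replicates 1, 2 and 4. In Stat3 d/d replicates 1, 2 and 3 it read 81.14, 47.05 and 37.01. Replicate 1 was the highest Stat3 d/d array, and the lowest Stat3 d/d array was still 1.52 times the highest Stat3 f/f array. The group means were 18.7 ± 5.85 and 55.1 ± 23.1 (SD, n = 3), a log2 change of 1.48 (SE 0.30, limma adjusted p = 0.00148).

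Itgal, the alpha L chain that pairs with it, read 24.97, 16.39 and 17.36 in Stat3 f/f against 86.11, 59.87 and 35.18 in Stat3 d/d. The order of the Stat3 d/d arrays was that of Itgb2, and the gap between groups was the narrowest of the 6 members, at 1.41-fold. The log2 change was 1.51 (SE 0.30), with group means of 19.6 ± 4.70 and 60.4 ± 25.5. Replicate 1 of Stat3 d/d carried part of the Itgal rise, which was 1.21 without that array and 1.85 without replicate 3. The Itgb2 rise was 1.16 without replicate 1.

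Itgax, the alpha X chain, read 4.56, 6.42 and 6.43 in Stat3 f/f against 19.4, 18.4 and 17.3 in Stat3 d/d. The Stat3 d/d arrays lay close together, within 1.12-fold of each other, against 2.45-fold for Itgal and 2.19-fold for Itgb2. Its log2 change was 1.52 (SE 0.18), from 5.80 ± 1.08 to 18.3 ± 1.005. The lowest intensity in the table was 2.47, so the Stat3 f/f values were near the bottom of the scale, and without the pseudocount the change was 1.68.

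Itga4, the alpha 4 chain, went the other way. It read 35.9, 20.8 and 49.9 in Stat3 f/f against 7.64, 10.1 and 9.19 in Stat3 d/d. The Stat3 f/f arrays spread over 2.40-fold, with replicate 2 lowest and replicate 4 highest, while all Stat3 d/d arrays were low. The mean fell to 25.2% of the Stat3 f/f level, from 35.6 ± 14.5 to 8.96 ± 1.23, a log2 change of -1.80 (SE 0.28, limma adjusted p = 0.000325). Among the 451 lower probe sets, 29 fell by at least as much, Itga4 included. Its probe set is annotated to a sequence record that is not a RefSeq transcript, as are those of Itgal and Itgb8, while those of Itgax, Itgb2 and Itga9 are annotated to RefSeq transcripts of their genes. Which part of the Itga4 transcript it reads was not examined.

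Itga9, the alpha 9 chain, fell as well. It read 41.76, 61.79 and 50.03 in Stat3 f/f against 11.15, 14.36 and 10.58 in Stat3 d/d. The groups were 2.91-fold apart at their nearest arrays, the widest gap among the members. The mean fell from 51.2 ± 10.1 to 12.03 ± 2.04, to 23.5% of the Stat3 f/f level, and the log2 change was -2.00 (SE 0.20, limma adjusted p = 1.9e-05). Of the 451 lower probe sets, 20 fell at least as far, Itga9 included.

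Itgb8, the chain that activates TGF-beta together with alpha V, read 83.7, 41.1 and 32.6 in Stat3 f/f against 135, 166 and 169 in Stat3 d/d. Replicate 1 was the highest Stat3 f/f array and the lowest Stat3 d/d array. The means were 52.5 ± 27.4 and 156 ± 18.9 (SD, n = 3), and the change of 1.67 (SE 0.30) became 2.06 when Stat3 f/f replicate 1 was left out.

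**Figure D2:**
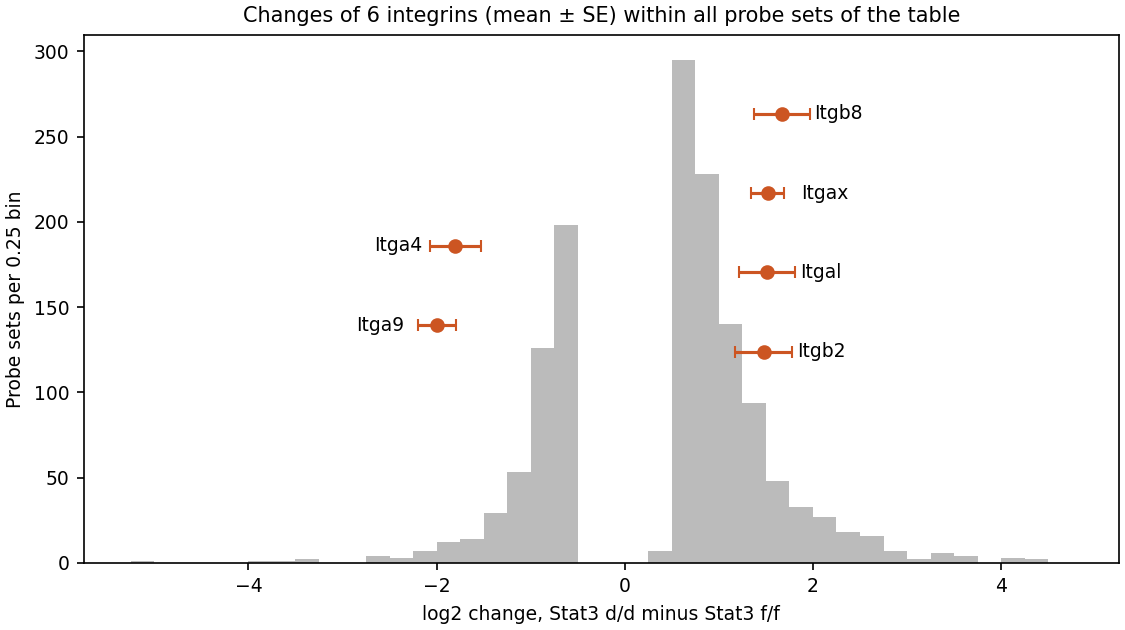
Histogram of the log2 change (horizontal axis) of all 1382 probe sets, in bins of 0.25 (vertical axis, probe sets per bin), with the 6 integrins as points with SE bars at arbitrary heights. The empty centre is the selection of the table, and all 6 integrins lie beyond the bulk of the bars on their side.

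The leukocyte chains were next compared with Itga9 and Itgb8 within each array, since such a difference does not depend on the scaling between arrays. Relative to Itga9, the rises of Itgax, Itgal and Itgb2 came to 3.51 (SE 0.15), 3.51 (SE 0.49) and 3.47 (SE 0.43) on the log2 scale. Relative to Itgb8, the same chains changed by -0.15 (SE 0.56), -0.16 (SE 0.52) and -0.19 (SE 0.58), and the arrays of the groups overlapped. Itga4 behaved in reverse: relative to Itga9 it changed by 0.20 (SE 0.49), with overlap, and relative to Itgb8 by -3.47 (SE 0.56), without overlap. The separation of pairs that moved in opposite directions is fixed by the selection of the table and was not tested. For the 7 pairs that moved in the same direction, the groups overlapped in all 7. The differences in change within these 7 pairs were at most 0.20 in size, with SEs of 0.34 to 0.58. An exact permutation test of 3 arrays against 3 cannot go below p = 0.1, so none is used here. The 4 rises, and the 2 falls, are given in no order of size, and equal changes are not shown either.

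Leukocyte markers moved with the 3 rising leukocyte chains. The marker lists were drawn up with earlier results of these data known, so their counts are a description and support nothing. All 5 of 5 pan-leukocyte genes (Ptprc, Cd52, Cd53, Laptm5 and Coro1a) were in the table and higher in Stat3 d/d, against 67.4% of all probe sets, with a median log2 change of 1.29 against 0.70. Their summed intensity was 364 to 596 in Stat3 f/f and 937 to 1577 in Stat3 d/d, and none was near the bottom of the scale (lowest value 30.5). Ptprc, the pan-leukocyte phosphatase CD45, read 145, 107 and 81.6 in Stat3 f/f against 420, 321 and 270 in Stat3 d/d, a change of 1.61 (SE 0.24). Of the cell types, 8 of 10 natural killer, 4 of 14 macrophage and monocyte, 2 of 9 dendritic cell, 1 of 10 T cell and 1 of 6 B cell markers were in the table. All 16 of these were higher in Stat3 d/d, in a table where 67.4% of probe sets were. With 45000 assumed tests, 7 of the 8 natural killer, 1 of the 4 macrophage and 2 of the 2 dendritic cell markers passed. Neither the T cell nor the B cell marker passed. Of the 5 pan-leukocyte genes 2 passed, against 37.5% of all probe sets. The natural killer markers summed to 78.8 to 128 in Stat3 f/f and 332 to 489 in Stat3 d/d. Several were low on the scale, with Stat3 f/f means of 4.27 (Klra8), 6.27 (Klrk1), 6.74 (Eomes), 9.66 (Ncr1) and 9.88 (Il2rb). The dendritic cell marker Cd209a was low too, at 7.29. The macrophage markers summed to 162 to 220 and 347 to 676, and the dendritic cell markers to 42.5 to 49.6 and 88.7 to 103. Cd3g, the T cell marker, read 3.51 to 4.66 and 6.31 to 17.9, near the bottom of the scale, and Ighm, the B cell marker, 15.9 to 25.1 and 28.7 to 49.6. None of 7 neutrophil markers and none of 7 eosinophil and mast cell markers was in the table, so these were not analysed here. In whole uterus, fewer or more cells of a type and less or more RNA per cell cannot be told apart. What part the leukocyte markers have in the integrin changes was not tested.

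Relative to Ptprc in the same array, Itgax, Itgal and Itgb2 changed by -0.09 (SE 0.39), -0.09 (SE 0.24) and -0.13 (SE 0.27), with overlapping groups. Itga4 changed by -3.40 (SE 0.56) relative to Ptprc and Itga9 by -3.60 (SE 0.41), both without overlap. Itgb8, which is not named for leukocytes, changed by 0.06 (SE 0.34), also with overlap. Among the Stat3 d/d arrays, replicate 1 was highest and replicate 3 lowest for all 5 pan-leukocyte genes and for Itgax, Itgal and Itgb2. For Itgb8 replicate 1 was lowest, and replicates 2 and 3 were nearly equal. The order of the pan-leukocyte genes was seen in 222 of the 931 higher probe sets (23.8%). In Stat3 f/f, replicate 4 was lowest for all 5 pan-leukocyte genes, and for Itgb2 and Itgb8 among the members. Itgb8 and Ptprc had the same order in that group, with replicate 1 highest, whereas Itgax was highest in replicate 4 and Itgal lowest in replicate 2.

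**Figure D3:**
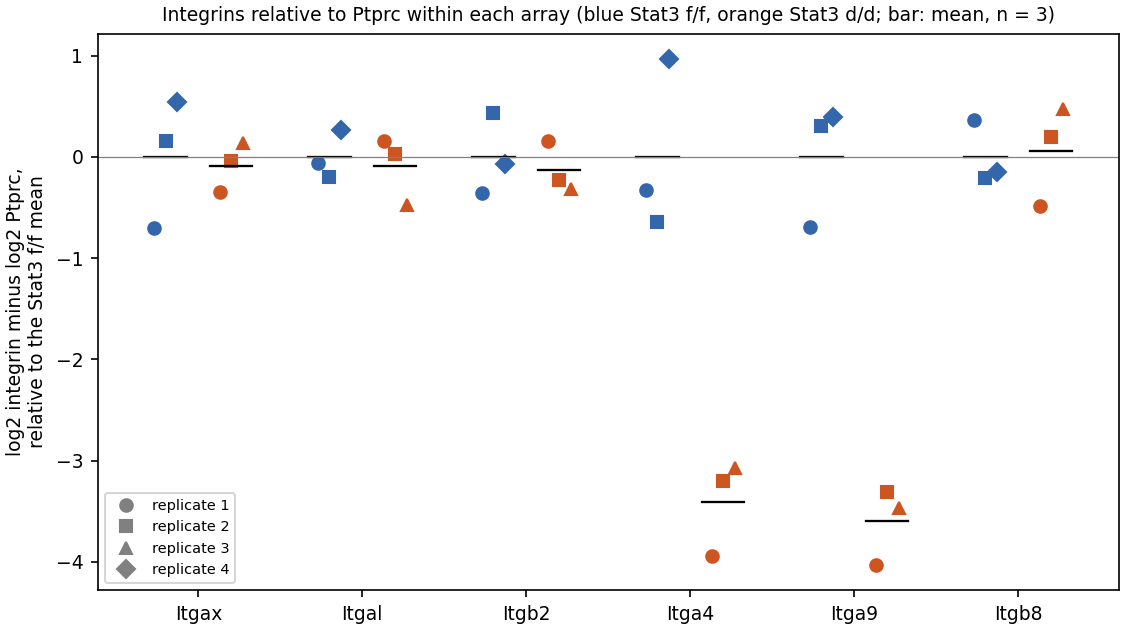
Difference between the log2 value of each integrin and that of Ptprc in the same array (vertical axis, log2, set to 0 at the Stat3 f/f mean), in Stat3 f/f (blue) and Stat3 d/d (orange) arrays; bars are means of 3. Itga4 and Itga9 are 3.40 and 3.60 lower in Stat3 d/d, and the groups overlap for the other 4.

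Markers of the cells named above for alpha 9 were mostly outside the table, and none of 7 smooth muscle markers was in it. None of 6 blood endothelial markers was in the table either. Of 6 lymphatic endothelial markers, 3 were, and all of these rose, against 67.4% of all probe sets, while Itga9 fell. Reln rose by 1.13 (SE 0.19), the hyaluronan receptor Lyve1 by 0.82 (SE 0.22) and podoplanin, Pdpn, by 0.77 (SE 0.16). With 45000 assumed tests 1 of these 3 passed, Reln, against 37.5% of all probe sets. Their summed intensity was 107 to 153 in Stat3 f/f and 208 to 251 in Stat3 d/d. The 2 epithelial markers in the table, Cldn3 and Cldn4, rose by 0.74 (SE 0.21) and 0.68 (SE 0.17), with sums of 516 to 815 and 1028 to 1209. The 3 stromal markers in the table, Pgr, Thy1 and Dcn, fell, as did Itga4, Itga9 and 32.6% of all probe sets. None of the 3 passed with 45000 assumed tests. Their sums were 1436 to 2198 and 895 to 1022. Most of each sum was Pgr, with means of 1261 and 694, and the Dcn probe set was dim, with means of 27.6 and 12.7. Of 4 mesothelial markers 1 was in the table, Upk3b, which rose by 0.74 (SE 0.21). The part of any of these cells in the integrin values was not tested.

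Few genes for the partners of these integrins were in the table. Of 15 ligands of leukocyte integrins, 2 were: Vcam1, the endothelial ligand of the alpha 4 and alpha 9 integrins, rose, and Thy1, a surface glycoprotein of stroma and T cells, fell. Vcam1 read 23.2, 16.7 and 17.6 in Stat3 f/f against 39.2, 35.5 and 38.7 in Stat3 d/d. The change of Vcam1 was 0.96 (SE 0.18), which also passed with 45000 assumed tests, as 37.5% of all probe sets did. Both of its receptor chains fell. The lack of overlap between groups, for ligand and receptor chains alike, was fixed by the selection of the table. Thy1 had means of 461 ± 102 and 269 ± 33.1, a change of -0.76 (SE 0.20). Of 16 ligands of α9β1, 3 were in the table and all 3 rose by their brighter probe set, against 67.4% of all probe sets. Besides Vcam1, the matrix protein thrombospondin, Thbs1, rose by 0.75 (SE 0.16). The lymphatic growth factor Vegfc gave 0.72 (SE 0.21) on a probe set that may share sequence with other transcripts and -0.76 (SE 0.18) on a slightly dimmer one, so its direction is not settled. None of the 21 genes listed for the αVβ8 integrin and TGF-beta activation, which include Itgav and the TGF-beta ligands, was in the table. Only Itgb8 of that pathway is therefore described, and the absent genes cannot be called unchanged.

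Of 41 genes of integrin activation and signalling, 6 were in the table, 5 higher and 1 lower, with a median log2 change of 1.004. The whole table had 67.4% higher and a median of 0.70, so this division is near the background. Those that rose act in blood cells. Cytip, a regulator of lymphocyte adhesion through cytohesin, rose by 1.39 (SE 0.31), from 15.4 ± 6.16 to 41.1 ± 12.8. Fyb, an adaptor that links T cell receptor signals to integrins, rose by 1.08 (SE 0.23), and Lcp2, the adaptor SLP-76, by 0.97 (SE 0.25). Fermt3, or kindlin-3, which binds integrin beta tails in blood cells, had 2 probe sets, the brighter at 1.04 (SE 0.22) and the dimmer at 0.57 (SE 0.19). Vav1, an exchange factor of blood cells, rose by 0.62 (SE 0.18) at intensities below 10. The gene that fell was Parva, the actin-binding parvin of adhesions in many tissues, from 66.7 ± 5.18 to 44.4 ± 3.69, a change of -0.58 (SE 0.16). In limma with 45000 assumed tests, 0 of these 6 genes passed on their brighter or only probe set, where all 6 had an unadjusted p under 0.05, against 37.5% of all probe sets. The dimmer Fyb probe set did pass, with a change of 1.13 (SE 0.19, adjusted p = 0.0207).

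Of 14 genes of selectins and leukocyte homing, 4 were in the table and all rose, against 67.4% of all probe sets. With 45000 assumed tests 1 of the 4 passed, Selplg, against 37.5% of all probe sets (28% higher), so this count is near the background. Selplg, the selectin ligand of leukocytes, rose by 1.26 (SE 0.20), and the monocyte chemokine receptor Ccr2 by 1.25 (SE 0.31). On the vessel side, P-selectin, Selp, rose by 0.94 (SE 0.20) and the venular chemokine-binding receptor Ackr1 by 0.94 (SE 0.24). Their summed intensity was 80.0 to 148 in Stat3 f/f and 193 to 285 in Stat3 d/d.

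**Figure D4:**
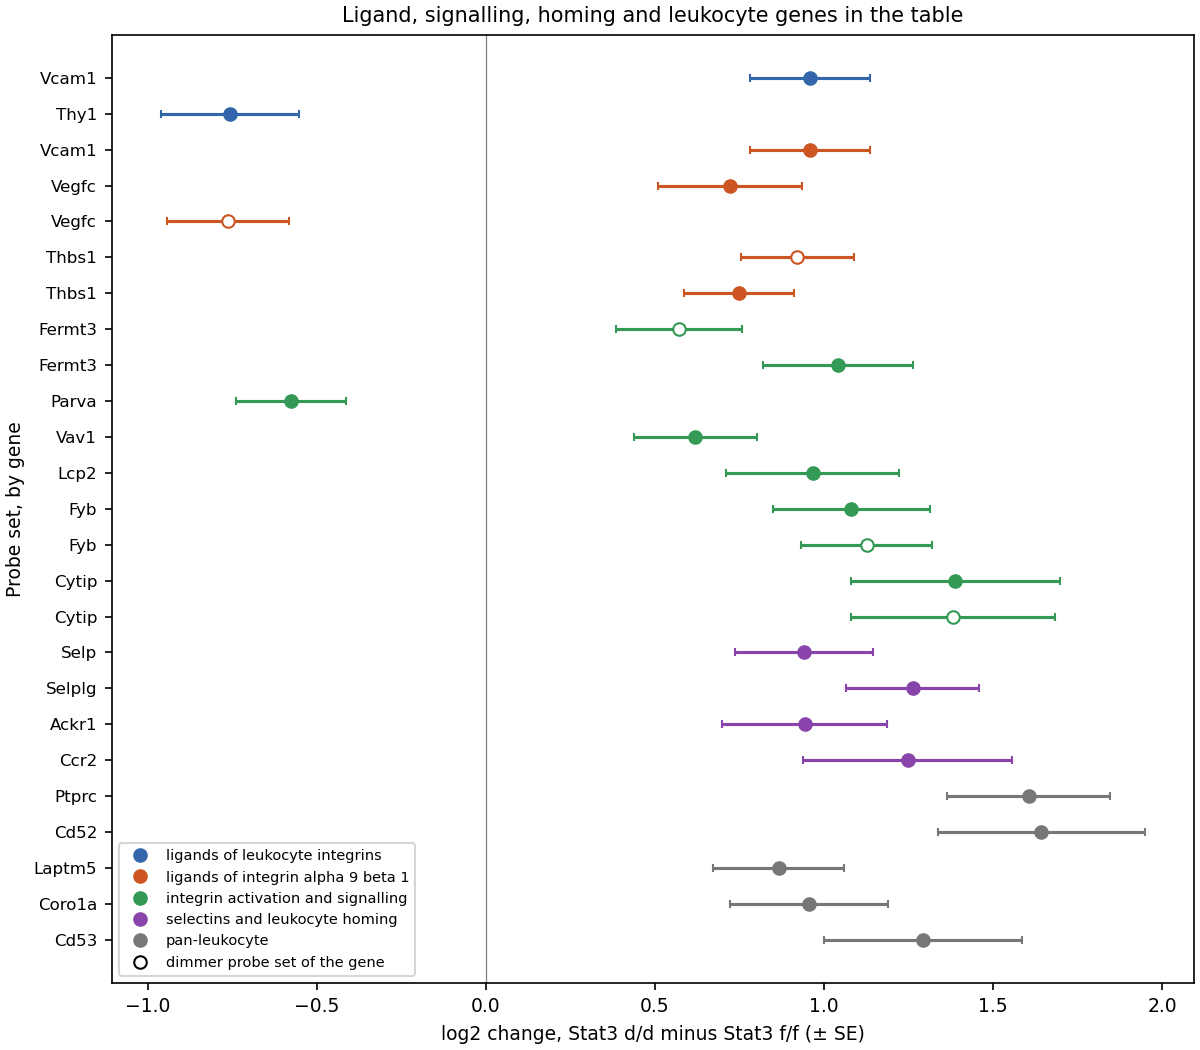
Log2 change with SE (horizontal axis) of each probe set in the table for ligand, signalling, homing and pan-leukocyte genes (rows; colours mark the lists, open points the dimmer probe sets of a gene). Of the genes shown, Thy1, Parva and the dimmer Vegfc probe set are lower in Stat3 d/d, and the others are higher.

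The genes most like each integrin were found by the root mean square difference of centred log2 values over the 6 arrays, among 956 named genes. Itgb2 was nearest to Fcer1g, the Fc receptor gamma chain (0.12), then to Cd52 (0.15) and Rac2 (0.18), a GTPase of blood cells. Itgal was nearest to Cd48 (0.18), H2-D1 (0.18) and the MHC class II chain H2-Aa (0.18). Itgax was nearest to the small heat shock gene Hspb7 (0.10), Gdpd1 (0.12) and the peptide transporter Tap1 (0.13). Itgb8 was nearest to Cttnbp2 (0.16), the proton pump gene Atp12a (0.18) and the sulfotransferase Sult1d1 (0.19). Itga9 was nearest to Tex15 (0.22), Isoc1 (0.23) and Hddc3 (0.25). Itga4 was nearest to the glycolytic gene Aldoc (0.25), Mtrex (0.25) and the plasminogen activator Plat (0.30). Of the genes nearest to any member, only Cd52, found for Itgb2, was in the marker lists. Between members, Itgal and Itgb2 were the closest pair, at 0.34, followed by Itgax and Itgb2 at 0.42, while Itga4 and Itga9 were 0.50 apart. Likeness here mostly measures an equal change between the groups, on which the table was selected.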

How the data were processed

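Biotin-labelled cRNA of 6 uterine samples, 3 of each genotype, was measured on Affymetrix arrays, per the labels' protocols. Groups come from source names and replicate numbers from titles. The authors deposited a linear intensity for each probe set, and the submitters' processing notes name RMA without a version. The step from RMA's log2 values to a linear scale, the selection of probe sets and the genome build are not stated in the sources used here.

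Gene names come from the annotation of the platform: 1191 probe sets had 1 symbol, 57 several and 134 none here. A gene is represented by its brightest probe set. Values were taken as log2(intensity + 1), which understates changes of dim genes. All probe sets were fitted in limma (version 3.58.1, R 4.3.3) without covariates, p-values were adjusted by Benjamini-Hochberg across all probe sets, and 0.05 was the threshold. Every change is Stat3 d/d minus Stat3 f/f. The SEs and p-values of changes are moderated by limma toward the spread of the probe sets in this selected table. By its own spread alone, the SE was larger for Itgal (0.41), Itgb2 (0.42), Itgb8 (0.41) and Itga4 (0.37). It was 0.15 for Itgax and 0.20 for Itga9. SEs of within-array differences use the pooled spread of the groups, without moderation. The fit was tested on simulated data.

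The members and gene lists were chosen with earlier results of these data known, and the promoter motifs after the data were seen. Named genes were the 6 members, Stat3, pathway-list genes in the table, cell type markers, and the 3 genes most like each member, leaving out unnamed predicted genes. Alternatives were median centring, quantile normalization, no pseudocount, 45000 assumed tests, no variance moderation, both of these together, leaving out dim probe sets, the replicate number as a block, averaging the probe sets of a gene, and leaving out each array. The number of arrays limits the precision.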

Additional observations from a re-analysis of the deposited data

How the results depend on the processing

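All 6 integrin probe sets kept their direction under every alternative run, and all 6 passed under each except for the following. With no variance moderation and 45000 assumed tests together, 0 passed (adjusted p from 0.158 for Itgax to 1 for Itgb2), and 17 of 1382 probe sets did. Itgax was left out with the dim probe sets, and the other 5 passed, as did all 1036 probe sets kept. With no variance moderation alone, 98.6% of all probe sets passed. Median centring and quantile normalization lowered the table's median change, which was 0.70, to 0.24 and 0.25. With centring the 4 rises became at most 1.20 (Itgb8) and at least 1.01 (Itgb2) and the falls -2.27 and -2.46. Calls among all probe sets then numbered 422 higher and 451 lower, and with quantile normalization 438 and 451. Without a pseudocount, the difference of Itgax from Itga9 was 3.76. It moved by more than the spread between arrays, as the change of Itgax went from 1.52 to 1.68 and that of Itga9 from -2.00 to -2.08. Leaving out each array in turn kept 6 calls, but 97.5% to 99.6% of all probe sets were called in these runs too. As no groups in the table overlapped, leaving out an array could not reverse a direction. The changes ran from 1.38 to 1.59 for Itgax, 1.21 to 1.85 for Itgal and 1.16 to 1.72 for Itgb2. They ran from -2.13 to -1.52 for Itga4, -2.13 to -1.85 for Itga9 and 1.39 to 2.06 for Itgb8. The small differences between pairs that overlapped changed sign when an array was left out: Itga4 against Itga9 ran from -0.28 to 0.48 and Itgal against Itgb8 from -0.56 to 0.24. Averaging the probe sets of a gene gives the value given, as each member has 1.

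Numbers 1 and 2 are shared by both groups, but same-numbered arrays did not deviate together (correlations over probe sets 0.088 and 0.028), so they were not taken as pairs. With the replicate block 6 integrin probe sets passed, and 1284 over the table. Stat3 f/f replicate 4 and Stat3 d/d replicate 3 have no partner and drop out of that contrast. It therefore rests on replicates 1 and 2 of each group alone.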
